A study of Homo sapiens with 6 samples.

Results

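A group of 9 interferon-response genes was examined in a breast cancer line: IFI6, IFI27, IFI35, IFI44, IFI44L, XAF1, SAMD9, SAMD9L and EPSTI1. They are 9 of the 29710 genes in the deposited read table, and all 9 were among the 16515 genes with enough reads to be tested. They were chosen by their symbols, with the measured difference between SRPK2 and empty-vector cells already known, so that genes with a higher level could be set beside IFI27 and IFI35, which showed little difference. The differences between the groups given below for these genes are therefore descriptions of how they were picked. RNA of the line MDA-MB-231, derived from a breast cancer of the triple-negative class, was sequenced from both ends with strand kept. One arm overexpressed SRPK2-FLAG and the other carried an empty vector, each in 3 biological replicates, so every library comes from the same line and differs by the construct. The labels do not say whether each construct was carried by 1 clone or a pool, nor how it was delivered. SRPK2 is a kinase that phosphorylates splicing factors rich in serine and arginine.

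Interferons are secreted proteins that cells release on sensing viral nucleic acid. Type I and type III interferons act through receptors, the kinases JAK1 and TYK2, and a transcription factor complex that binds the interferon-stimulated response element (ISRE) in the promoters of its target genes. The genes described here are known targets of that pathway. IFI6 and IFI27 encode small hydrophobic proteins of one family that act at intracellular membranes, IFI35 encodes a leucine-zipper protein that pairs with NMI, and IFI44 and IFI44L are neighbouring paralogs. XAF1 encodes a pro-apoptotic protein that binds the caspase inhibitor XIAP, SAMD9 and SAMD9L encode large antiviral and growth-restraining proteins, and EPSTI1 was first described in breast cancer cells grown with stromal fibroblasts.

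The promoters of these genes are shown because the ISRE is the element they are known to share. RefSeq promoter windows (GRCh38.p14, 250 bases before to 50 after a transcript start) were given for all 9 genes, with a second window for IFI27, IFI44 and XAF1. In each stretch, read 5′ to 3′ on the gene's own strand, capitals mark the ISRE core GAAANNGAA on either strand (TTCNNTTTC on the other). For IFI35, XAF1 and SAMD9L, whose windows lack those letters, capitals mark AANNGAAA (TTTCNNTT on the other strand), the shorter core bound by interferon regulatory factors (IRF).
IFI6, chr1:27672262-27672363, minus strand: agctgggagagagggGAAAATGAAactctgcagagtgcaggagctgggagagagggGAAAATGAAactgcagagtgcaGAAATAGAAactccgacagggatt
IFI27, chr14:94110610-94110669, plus strand: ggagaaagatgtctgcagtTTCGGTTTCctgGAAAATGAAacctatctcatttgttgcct
IFI44, chr1:78649747-78649806, plus strand: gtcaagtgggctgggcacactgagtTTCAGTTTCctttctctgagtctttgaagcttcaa
IFI44L, chr1:78620269-78620398, plus strand: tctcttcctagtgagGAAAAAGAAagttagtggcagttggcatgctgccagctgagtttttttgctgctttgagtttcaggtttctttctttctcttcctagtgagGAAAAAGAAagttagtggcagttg
SAMD9, chr7:93118081-93118140, minus strand: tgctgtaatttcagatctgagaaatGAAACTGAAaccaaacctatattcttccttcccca
EPSTI1, chr13:42992257-42992316, minus strand: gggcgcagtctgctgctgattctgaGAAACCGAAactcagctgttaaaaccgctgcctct
IFI35, chr17:43006743-43006802, plus strand: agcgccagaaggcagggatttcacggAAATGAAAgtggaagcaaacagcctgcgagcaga
XAF1, chr17:6756000-6756075, plus strand: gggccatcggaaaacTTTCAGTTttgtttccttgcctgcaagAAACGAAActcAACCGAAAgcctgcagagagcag
SAMD9L, chr7:93148398-93148457, minus strand: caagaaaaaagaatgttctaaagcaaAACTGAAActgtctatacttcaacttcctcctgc

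The ISRE core was present in the windows of 6 of the 9 genes. It was present in 9.86% of all 27305 genes with a window (8.11% of the 35116 windows) and in 26 of 37 other interferon-stimulated genes with one (70.3%). The count was again 6 when only the 250 bases before the start were read. There the share was 8.41% of all genes (6.88% of windows) and 59.5% of the 37 other interferon-stimulated genes. IFI6 held 3 copies, IFI27 and IFI44L 2 each, and IFI44, SAMD9 and EPSTI1 1 each. The letters did not separate the genes by their level difference: IFI27 held 2 copies while XAF1 and SAMD9L held none. The shorter IRF core, searched after the sequences had been seen, was present in all 9 genes, in 89.2% of the 37 other interferon-stimulated genes and in 26.7% of all genes (22.8% of windows), and it overlaps each ISRE core. The palindromic GAS core TTCNNNGAA, known from promoters that respond to type II interferon, was present in IFI27, IFI35 and EPSTI1, in 24.3% of the other interferon-stimulated genes and in 9.38% of all genes (7.66% of windows). A match describes the letters only, and binding was not measured.

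**Figure D1:**
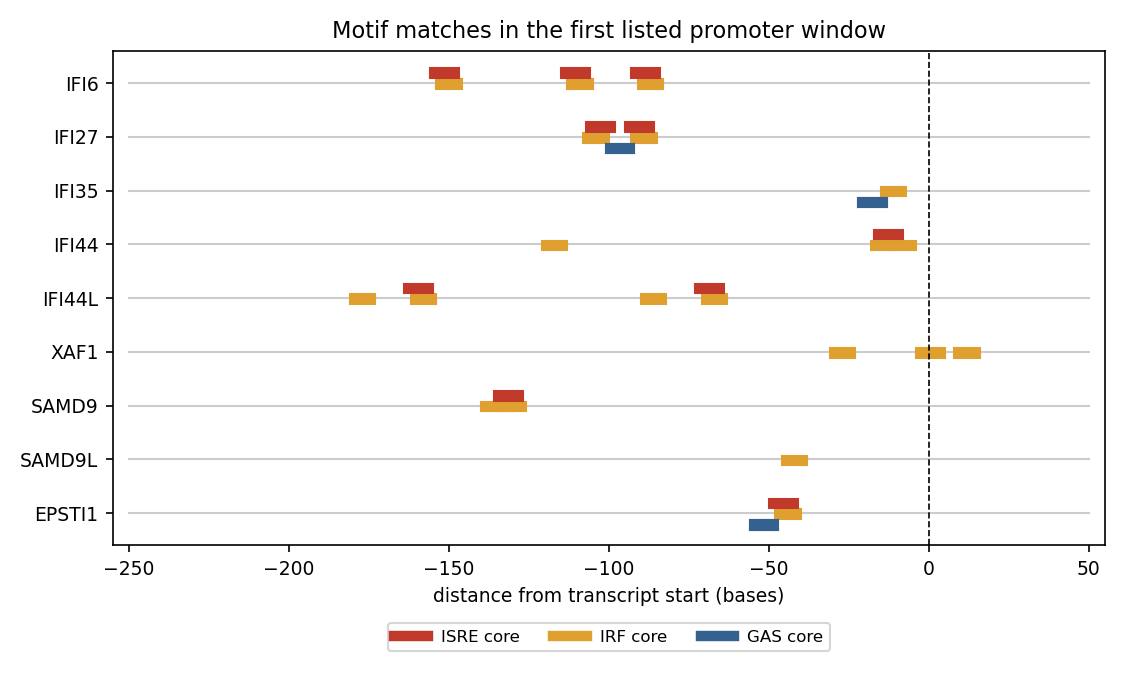
Position of each motif match, in bases from the transcript start (horizontal axis, dashed line at the start), for the first listed window of each of the 9 genes. Red bars are ISRE cores, amber bars the shorter IRF cores and blue bars GAS cores. IFI6 holds 3 red bars, and the rows of IFI35, XAF1 and SAMD9L hold none.

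IFI44L carried both of its ISRE cores, and IFI6 carried 2 of its 3, in repeated stretches. The IFI44L window contained 1 exact repeat of 85 bases, from -189 to -105 and again from -98 to -14 before the start, and each copy held an ISRE core. Its unit was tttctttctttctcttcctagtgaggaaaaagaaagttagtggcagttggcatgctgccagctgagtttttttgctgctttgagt. Only 33 of the 35116 windows (0.094%) held a repeat of that length or longer. IFI6 repeated the 29 bases ggagctgggagagaggggaaaatgaaact at a distance of 41 bases, a length reached by 0.883% of windows. The longest exact repeats of the other 7 genes were 7 to 11 bases. Between the neighbours IFI44 and IFI44L the longest shared run was the 13 bases agttggcatgctg, and between SAMD9 and SAMD9L it was the 10 bases catttcagat. The search for repeats was made after the sequences had been seen.

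Depth and labels were checked before levels were read. The SRPK2 libraries held 31140537 to 36908878 reads assigned to genes and the empty-vector libraries 33590410 to 36225361. SRPK2 itself had 213, 248 and 294 CPM (reads scaled to library size by TMM) in its own libraries, against 37.8, 36.75 and 41.1 CPM with the empty vector, a difference of 2.71 on the log2 scale (SE 0.10; adjusted p = 2.94e-08 in edgeR). For log2 CPM, the two-sided exact permutation p was 0.1, which is the lowest value possible with 3 libraries in each arm. VIM, CD44 and AXL were abundant, with mean levels of at least 918 CPM in the SRPK2 group and 900.3 CPM in the empty-vector group, and ESR1 and PGR had at most 2 and 4 reads in a library. ERBB2, the gene of the remaining receptor behind the term triple-negative, was present at 51.4 CPM with SRPK2 and 47.1 CPM with the vector, and SPARC, listed as a mesenchymal gene of such lines, was near 0 (0.299 CPM with SRPK2 and 0.311 CPM with the vector). Libraries did not contribute equally to the calls: without SRPK2 replicate 2 the number of genes called over the transcriptome was 1403, against 75 with all 6 libraries, and it was 27 to 46 when any other single library was left out.

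SAMD9, SAMD9L and XAF1 were higher in every SRPK2 library than in any empty-vector library, by 35.4% to 47.7%. SAMD9 had 76.6, 72.5 and 86.1 CPM in the SRPK2 libraries and 57.2, 55.3 and 53.5 CPM in the empty-vector libraries, a log2 fold change of 0.50 (SE 0.07). The lowest SRPK2 library thus lay 15.2 CPM above the highest empty-vector library. SAMD9L, its neighbour on chromosome 7, had 49.6, 51.4 and 55.1 CPM with SRPK2 and 39.7, 37.6 and 38.0 CPM with the vector, a log2 fold change of 0.44 (SE 0.06). The groups were separated by 9.90 CPM, and SRPK2 replicate 3 was the highest library for both genes. XAF1 had 22.2, 19.5 and 22.5 CPM with SRPK2 and 15.7, 13.8 and 13.9 CPM with the vector, a log2 fold change of 0.56 (SE 0.08) that placed 469th of the 16515 genes by absolute size. These 3 genes are the ones past the edgeR threshold (adjusted p under 0.05 over all tested genes) among the 9. Of all tested genes 0.381% passed it as higher with SRPK2 and 0.0727% as lower; since that comparison chose the genes, nothing is read from their count. The count was 5 when scaled by library size alone, 6 without the filter on low counts and 0 with limma on unfiltered log2(FPKM + 1). Over all tested genes those settings called 104 of 16515, 997 of 29710 and 18 of 29256, against 75 of 16515 as reported.

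IFI44L, EPSTI1 and IFI6 also had groups that did not overlap, at lower read numbers, and did not pass the threshold. IFI44L, which had 128 to 235 reads a library, stood at 5.94, 6.72 and 5.84 CPM with SRPK2 and 4.47, 4.65 and 3.50 CPM with the vector. Its log2 fold change of 0.56 equalled that of XAF1 to 2 decimals, but its SE was 0.12. EPSTI1, with 211 to 334 reads, had 8.21, 9.55 and 7.51 CPM with SRPK2 and 6.003, 6.59 and 6.18 CPM with the vector (0.43, SE 0.10). The lowest SRPK2 library exceeded the highest vector library by 0.92 CPM. IFI6, with 253 to 340 reads, had 9.36, 9.72 and 8.43 CPM with SRPK2 and 7.82, 7.79 and 7.30 CPM with the vector (0.26, SE 0.09). With XAF1, SAMD9 and SAMD9L these made 6 genes whose SRPK2 libraries all lay above the vector libraries, a pattern that 11.5% of all tested genes showed. IFI44L passed the threshold without SRPK2 replicate 2, the only library whose removal moved the call of any of the 9 genes.

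IFI44, the most abundant of the genes by reads, had a smaller fold change than the genes described above, and its groups overlapped. Its fold change was positive in every setting. It passed the threshold in 3 settings: without the filter on low counts, and with a replicate block with or without a gene length correction. It had 118, 138 and 127 CPM with SRPK2 and 108, 119 and 107 CPM with the vector, a log2 fold change of 0.20 (SE 0.07). SRPK2 replicate 1 lay 1.14 CPM below vector replicate 2, and the other SRPK2 libraries lay above all vector libraries. At 3684 reads or more in every library, IFI44 had far more reads than IFI44L and a smaller fold change. Within a library, where scaling cancels, the reads of IFI44 were 19.8, 20.5 and 21.7 times those of IFI44L with SRPK2 and 24.2, 25.5 and 30.7 times with the vector.

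IFI27 and IFI35 had overlapping groups with close means. IFI27 had 51.7, 65.2 and 52.7 CPM with SRPK2 and 57.3, 62.4 and 50.4 CPM with the vector, a log2 fold change of -0.00 (SE 0.09) whose sign turned with other scaling, such as 0.03 with library size alone. Its highest and lowest libraries came from different groups, SRPK2 replicate 2 and vector replicate 3. IFI35 had 22.6, 21.8 and 22.3 CPM with SRPK2 and 24.5, 23.8 and 21.6 CPM with the vector (-0.07, SE 0.06). The SRPK2 libraries of IFI35 all lay between the lowest and the second vector library, and its mean was 22.2 ± 0.444 CPM with SRPK2 and 23.3 ± 1.50 CPM with the vector (SD, n = 3 each). Set against IFI27 within each library, the reads of its relative IFI6 were 0.181, 0.149 and 0.160 of those of IFI27 with SRPK2 and 0.136, 0.125 and 0.145 with the vector. The reads of XAF1 were 0.982, 0.896 and 1.01 of those of IFI35 with SRPK2 and 0.641, 0.582 and 0.643 with the vector. Neither pair overlapped between the groups, but each sets a gene picked as higher over one picked as little changed. The separation therefore repeats how the genes were picked, and for IFI6 over IFI27 it was narrow, 0.149 against 0.145. For SAMD9 over SAMD9L, which were both higher, the ratios overlapped. They were 1.55, 1.41 and 1.56 with SRPK2 and 1.44, 1.47 and 1.41 with the vector.

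**Figure D2:**
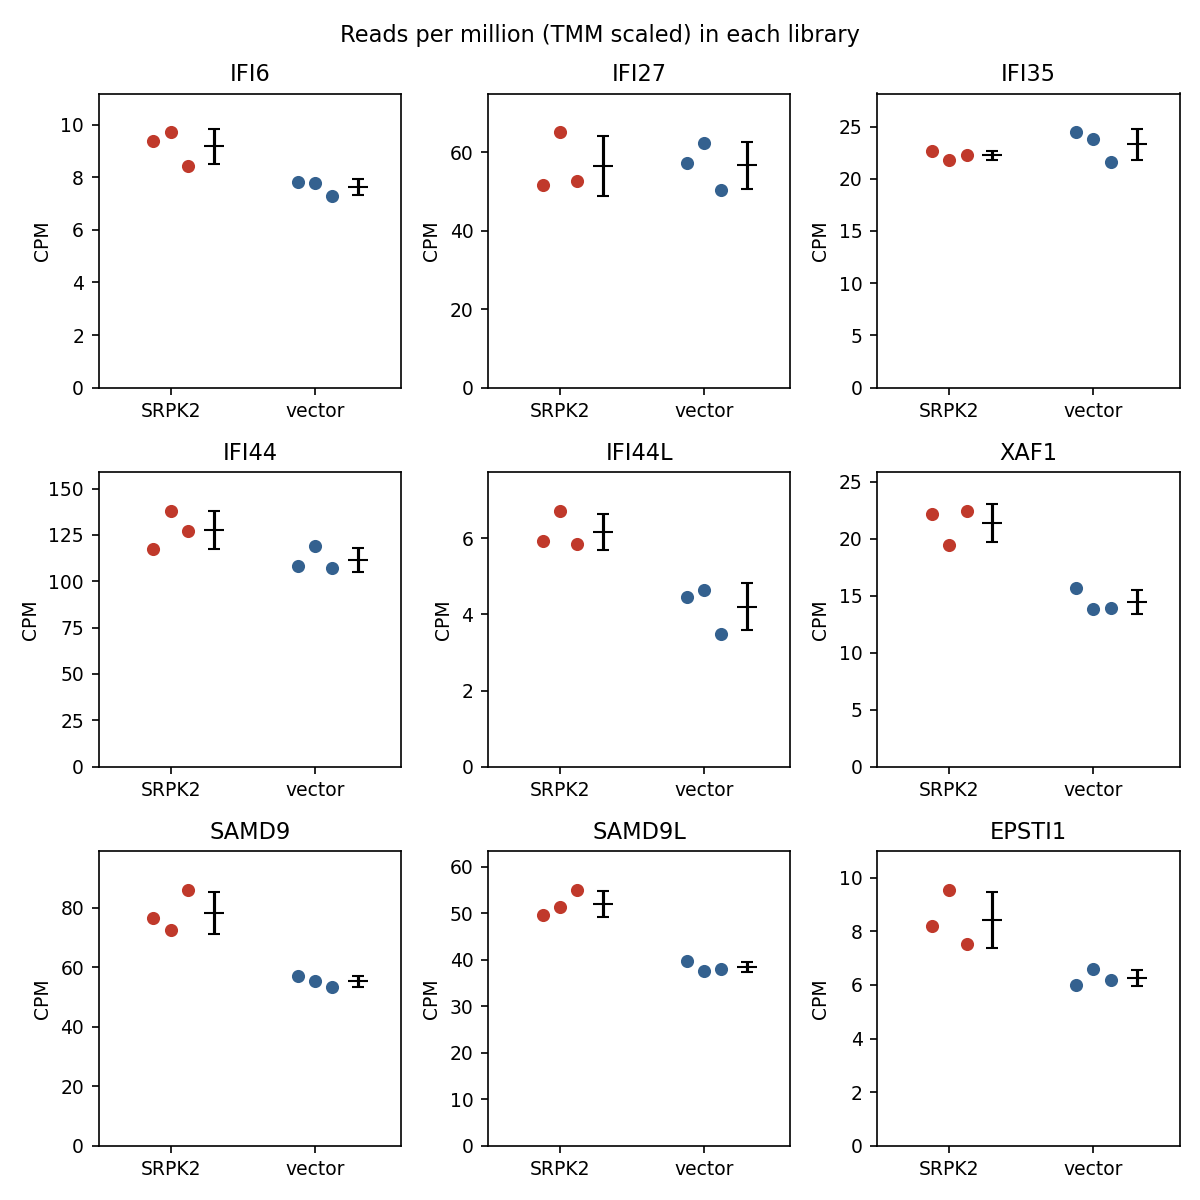
CPM (TMM scaled, vertical axes from 0) of each gene in the 3 SRPK2 libraries (red, left) and the 3 empty-vector libraries (blue, right), with the mean and SD of each group beside the points. The groups are apart for 6 genes and overlap for IFI27, IFI35 and IFI44.

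**Figure D3:**
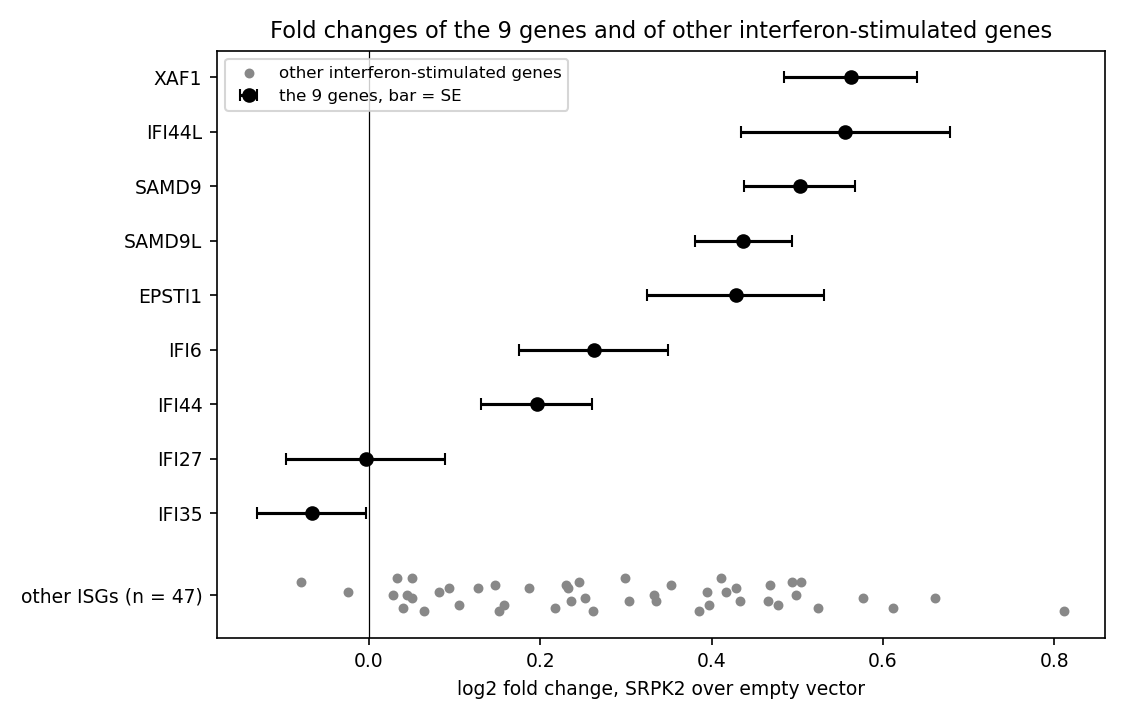
Log2 fold change of SRPK2 over empty vector (horizontal axis) for the 9 genes, with SE bars, and for 47 other interferon-stimulated genes (grey points). The 9 genes run from -0.07 for IFI35 to 0.56 for XAF1, within the range of the grey points, -0.08 to 0.81.

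The order of levels between the genes depended on the length used. FPKM is a level per length, and the lengths behind the deposited values are not given. In it IFI44 was highest at 57.5 ± 4.51 with SRPK2 and 49.0 ± 2.18 with the vector (SD, n = 3 each). IFI27 followed at 12.5 ± 1.54 with SRPK2 and 12.2 ± 1.10 with the vector. SAMD9 had 10.5 ± 1.16 FPKM with SRPK2, level with IFI35 at 10.4 ± 0.330 and above IFI6 at 8.99 ± 0.479, and the order of these 3 was IFI35, IFI6, SAMD9 with the vector (10.7 ± 0.548, 7.31 ± 0.173 and 7.24 ± 0.193), where IFI6 and SAMD9 lay within their SDs. SAMD9L, XAF1 and EPSTI1 came next, at 6.69, 2.97 and 1.57 FPKM with SRPK2 and 4.82, 1.96 and 1.14 FPKM with the vector. IFI44L was lowest, at 0.487 FPKM with SRPK2 and 0.323 FPKM with the vector. With all reads assigned to genes as the library total, reads and FPKM together imply a length near 4565 bases for IFI27. Its principal transcript in GENCODE 29 has 725 bases and all its annotated exons together cover 4147. The implied length exceeded the annotated exons for each of the 9 genes (7548 against 6855 bases for SAMD9). It is therefore approximate and depends on the read total, which is not given for the FPKM. The level per kilobase of principal transcript was taken from CPM scaled by library size alone, without TMM. On it IFI27 reached 78.8 ± 9.23 with SRPK2 and 77.1 ± 6.54 with the vector. It was level with IFI44 at 76.5 ± 5.69 with SRPK2 and above IFI44 at 65.1 ± 2.60 with the vector. The direction for IFI27 depended on the scaling: its TMM-scaled means were 56.53 CPM with SRPK2 and 56.72 CPM with the vector. Per kilobase of principal transcript IFI44L stood at 1.06 with SRPK2 and 0.705 with the vector, again the lowest. IFI27 and IFI35 were thus among the 3 highest of the 9 in both groups on this scale.

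**Figure D4:**
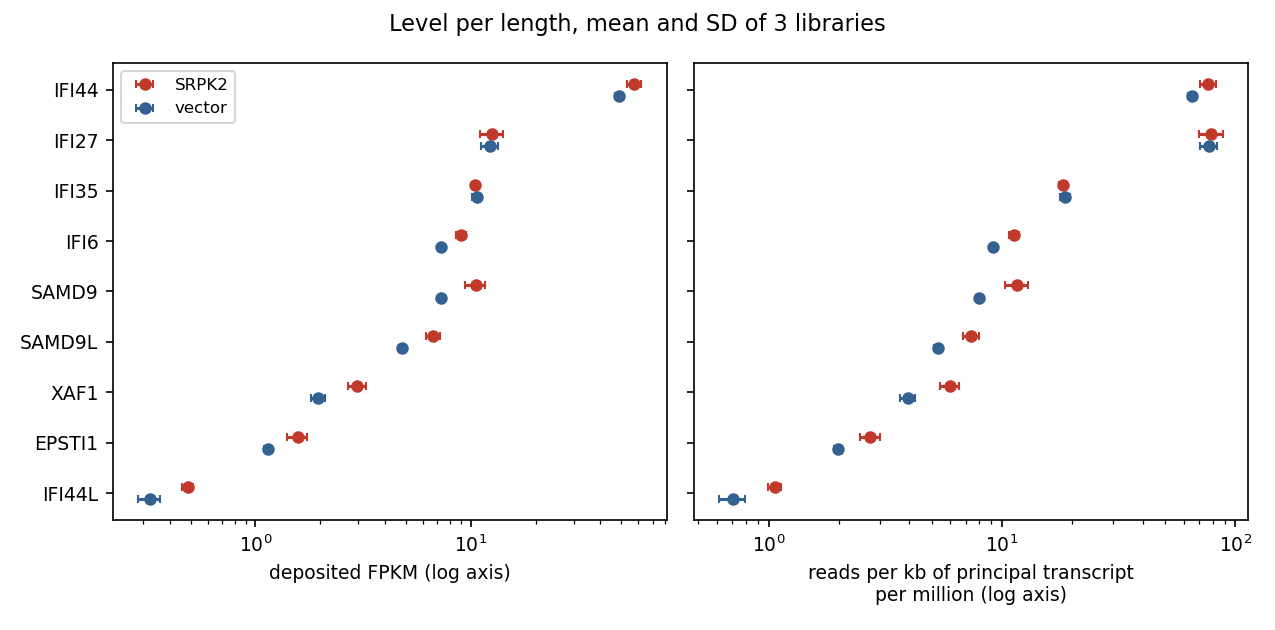
Level of each gene per length on log axes, as deposited FPKM (left) and as CPM per kilobase of principal transcript (right). The CPM on the right are scaled by library size alone, without TMM. Shown are the mean and SD of 3 SRPK2 libraries (red) and 3 empty-vector libraries (blue). IFI27 stands at 12.5 FPKM on the left and at 78.8 on the right in the SRPK2 group.

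Within a group the genes did not all move together. SRPK2 replicate 2 was the highest of the SRPK2 libraries for IFI6, IFI27, IFI44, IFI44L and EPSTI1 and the lowest for XAF1, SAMD9 and IFI35. On the log2 scale IFI27 lay 0.21 above its group mean there. Vector replicate 3 was the lowest vector library for IFI6, IFI27, IFI35, IFI44, IFI44L and SAMD9. IFI27 lay -0.17 from its group mean in that library. The spread of IFI27 within groups was thus larger than its difference between them.

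Other genes of the pathway, from lists written with earlier results of these data known, gave 20 of 103 tested genes past the edgeR threshold as higher and 0 as lower, with a median log2 fold change of 0.12 against 0.00 over all tested genes. At an unadjusted p under 0.05, 42 were higher and 1 lower, where 9.06% of all tested genes were higher and 8.10% lower. DESeq2 called 23 higher and 0 lower of the 100 it tested, against 0.584% higher and 0.312% lower over all genes. Of the 20, 18 were among the 47 tested interferon-stimulated genes, whose median was 0.26 and of which 45 values were positive. The antiviral enzyme OAS1 rose by 0.81 (SE 0.09, edgeR adjusted p = 0.00198), the guanylate-binding protein gene GBP4 by 0.66 (SE 0.07, adjusted p = 0.00167), the radical-SAM enzyme gene RSAD2 by 0.58 (SE 0.08, adjusted p = 0.0045) and the dynamin-like GTPase gene MX1 by 0.52 (SE 0.07, adjusted p = 0.00357), so SAMD9, SAMD9L and XAF1 had fold changes of the size of MX1. Of the 18 that rose, 15 had a RefSeq promoter window and 11 of these held the ISRE core. Of those that did not pass, 22 had a window and 15 held it. The count of 20 fell to 12 without vector replicate 1 and was 34 (33 higher, 1 lower) without SRPK2 replicate 2. Over all tested genes the counts were 27 without vector replicate 1 and 1403 (551 higher, 852 lower) without SRPK2 replicate 2.

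Receptors and signal carriers held 1 call. Of 7 tested ligands and receptors, IFNL1, a type III interferon, passed at very low levels (0.681 CPM with SRPK2 and 0.147 CPM with the vector, log2 fold change 2.21, SE 0.35, edgeR adjusted p = 0.0147). It had 3 to 25 reads a library. Limma-voom also called it (adjusted p = 0.0176), and DESeq2 gave it no adjusted p. It lost the edgeR call without SRPK2 replicate 1, vector replicate 1 or vector replicate 3 (adjusted p = 0.0662, 0.119 and 0.0887). IFNAR1, a subunit of the type I receptor, had -0.05 (SE 0.05, edgeR adjusted p = 0.653). Of 12 signalling factors 0 passed in edgeR, DESeq2 or limma-voom, and 4 were higher at an unadjusted p under 0.05. Among them STAT3, a transcription factor activated by cytokine receptors, had a log2 fold change of 0.11 (SE 0.06). NMI, the partner of IFI35, had -0.03 (SE 0.07), next to -0.07 for IFI35. Of 8 feedback inhibitors 0 passed in any of the 3 tools and 1 was higher at an unadjusted p under 0.05. PTPN11 and SOCS3, the most abundant of them, had 0.00 and 0.10. USP18, a protease that restrains the type I receptor, named here after its values were seen, had the largest difference of the list, 0.51 (SE 0.15, edgeR adjusted p = 0.164). It was 1 of 2 genes of the list whose SRPK2 libraries all lay above the vector libraries, as in 11.5% of all tested genes. For 1 gene, SOCS1, they all lay below (-0.30, SE 0.16, edgeR adjusted p = 0.34). The share of all tested genes in that direction is not given here, so nothing is read from it.

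Relatives and partners of the 9 genes were read in the same fit. Of 4 tested genes named IFI or related to IFI27 and the PYHIN family, 0 passed in edgeR, DESeq2 or limma-voom (1 higher and 1 lower at an unadjusted p under 0.05). The DNA sensor IFI16 had 0.07 (SE 0.05) and IFI27L1, a paralog beside IFI27, -0.11 (SE 0.09). Among 11 XAF1 partners, inhibitors of apoptosis and caspases, BIRC3 rose by 0.34 (SE 0.06, edgeR adjusted p = 0.0224) and no other passed. XIAP, the protein XAF1 binds, had 0.05 (SE 0.06, edgeR adjusted p = 0.705), at 46.1 CPM with SRPK2 and 44.6 CPM with the vector. Other genes with a SAM domain and Schlafen nucleases, which share a domain or activity with SAMD9, had 0 of 14 past the threshold in any of the 3 tools and 1 higher at an unadjusted p under 0.05. Their median was -0.01, with SAMD4B at 0.16 (SE 0.06) and SAMD1 at -0.09 (SE 0.06).

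The genes next to the 9 on their chromosomes showed no call. The nearest tested genes on either side, with 1 overlapping gene, gave 15 that were not themselves among the 9, and 0 of them passed in edgeR, DESeq2 or limma-voom (1 lower at an unadjusted p under 0.05). Without SRPK2 replicate 2, 2 passed as lower in edgeR, where 852 of all 16772 genes tested in that setting passed as lower. SAMD9 (chr7:93099513-93118023) and SAMD9L (chr7:93130055-93148369) lie 12032 bases apart on the minus strand, and VPS50, the next tested gene beyond SAMD9L at 83971 bases, had a log2 fold change of 0.01 (SE 0.06). IFI44L (chr1:78619922-78646145) ends 3651 bases before IFI44 (chr1:78649796-78664078) on the plus strand, and PTGFR, on the far side of IFI44L, had -0.35 (SE 0.35) at under 1 CPM. IFI27 (chr14:94104836-94116698) lies between IFI27L1, 990 bases away, and IFI27L2, 11081 bases away, which had -0.11 (SE 0.09) and -0.30 (SE 0.11). IFI35 (chr17:43006725-43014456) ends 149 bases from VAT1 on the opposite strand, which had 0.06 (SE 0.05) at 349 CPM with SRPK2 and 334 CPM with the vector. XAF1 (chr17:6755447-6775647) overlaps PRAL on the opposite strand, at 0.575 CPM with SRPK2 and 0.533 CPM with the vector. Since the strand setting of the counting is not given, reads of this pair may have been assigned to either gene, which leaves the values of both uncertain to that extent. IFI6 (chr1:27666061-27672218), on the minus strand, lies between the noncoding gene LINC02574, 3339 bases away, and FAM76A, 53761 bases away. LINC02574 had 0.17 (SE 0.13) and FAM76A -0.12 (SE 0.07). EPSTI1 (chr13:42886388-42992271), also on the minus strand, lies between AKAP11, 563121 bases away, and DNAJC15, 30932 bases away. AKAP11 had 0.05 (SE 0.07) and DNAJC15 -0.08 (SE 0.09). All positions are GRCh38, GENCODE 29.

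Markers of other cells were low for the most part. Of 8 leukocyte markers 2 had enough reads to be tested, CD14 and CD68, and PTPRC did not exceed 9 reads anywhere. CD14 had 5.57 CPM with SRPK2 and 5.94 CPM with the vector, and CD68 had 3.62 and 4.05 CPM. In FPKM, CD14 (3.11 with SRPK2 and 3.23 with the vector) lay above XAF1 (2.97 and 1.96). The summed FPKM of CD14 and CD68 was 4.26 to 5.06 with SRPK2 and 4.72 to 5.09 with the vector. Of 5 endothelial markers 2 were tested, summing to 0.83 to 1.06 FPKM with SRPK2 and 0.86 to 0.97 with the vector. All 6 fibroblast markers were tested and had positive fold changes (median 0.21), with 0 past the threshold in edgeR, DESeq2 or limma-voom and 3 higher at an unadjusted p under 0.05. Their summed FPKM was 2.15 to 2.25 with SRPK2 and 1.54 to 1.65 with the vector, so this sum moved with the group, and its part in the values of the 9 genes was not tested. Gene totals from bulk RNA cannot separate more responding cells from more RNA per cell.

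The genes most like each of the 9 across the 6 libraries were found by Pearson's r of log2 CPM among 12627 genes, as a description from few libraries that share the group difference. XAF1 was most like PLCG2 (r = 0.999), a phospholipase gene that rose by 0.45 (SE 0.07, edgeR adjusted p = 0.0187). SAMD9 was most like GALNT5 (r = 0.996) and, next, HERC6 (r = 0.995), itself an interferon-stimulated gene that rose by 0.41 (SE 0.05, edgeR adjusted p = 0.00372). SAMD9L was most like RAVER1 (r = 0.995) and FZD4 (r = 0.994), and EPSTI1 like PRSS23 (r = 0.995). IFI6 was most like CLDN4 and NFKBIA (r = 0.989 and 0.988), IFI44 like FRS2 (r = 0.983) and IFI44L like TLR5 (r = 0.9998). IFI27 was most like ASL, MIF and DDB2 (r = 0.986, 0.982 and 0.981), with log2 fold changes of 0.00, -0.02 and 0.01, and IFI35 like DECR2 (r = 0.991), with -0.26 (SE 0.15). No gene was the nearest of more than 1 of the 9.

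**Figure D5:**
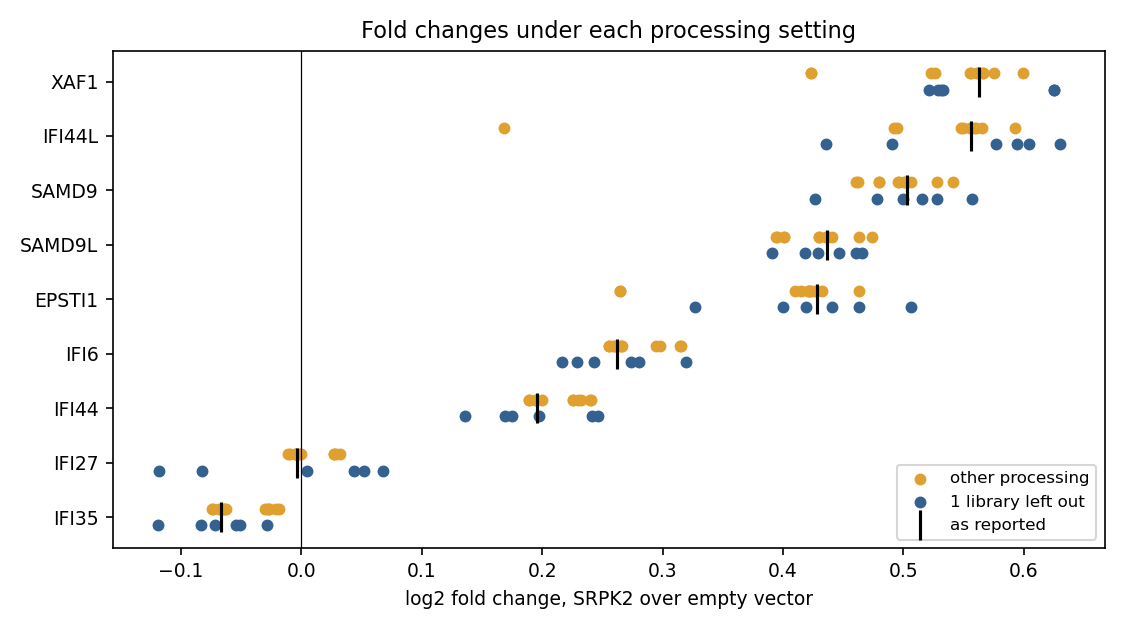
Log2 fold change of SRPK2 over empty vector (horizontal axis) for each gene as reported (black tick), under other processing settings (amber) and with 1 library left out (blue). XAF1, SAMD9, SAMD9L, EPSTI1, IFI44L, IFI6 and IFI44 stay above 0 in every setting drawn, IFI35 stays below 0 and IFI27 falls on either side.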

How the data were processed

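Per the series' design text, libraries were strand-specific. The submitters' processing notes name bcl2fastq, FastQC, HISAT2 and GRCh38; which program counted reads, with which strand setting and gene models, is not given in the sources used here. The authors deposited whole-number counts per gene, not normalized, and FPKM rounded to 2 decimals. How FPKM was computed is not given. The 9 genes and the lists were chosen with earlier results of these data known.

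The test was that of edgeR 4.0.16, under R 4.3.3 (TMM, filterByExpr, glmQLFit and glmQLFTest, group as the only term, two-sided, Benjamini-Hochberg over 16515 genes, threshold 0.05). SE was obtained by dividing the size of the log2 fold change by the root of the F statistic. Named genes were the 9, SRPK2, per list up to 4 called genes with the largest change or the 2 most abundant, neighbours, and the 3 most alike by r whose log2 CPM averaged 1 or more; not all are printed. Gene positions came from GENCODE 29, matched by identifier without version, and promoters from RefSeq (GRCh38.p14), matched by symbol, or by gene identifier where the symbol has changed. The IRF core and the level per kilobase of principal transcript were added after the data had been seen. Replicates differed by a chi-square per degree of freedom of 4.78 to 16.7 and none was merged. Scripts were tested on simulated counts. The alternatives are those of the closing section, with DESeq2 1.42.0 and limma 3.58.1, and leaving out each library.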

Additional observations from a re-analysis of the deposited data

How the results depend on the processing

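XAF1, SAMD9 and SAMD9L passed the threshold under 17 of 18 settings each, the exception being limma on log2(FPKM + 1) without a filter. The log2 fold change of IFI27, -0.0036 as reported, was 0.0324 with library size alone, 0.0268 with limma on log2(FPKM + 1) with or without a filter and 0.0285 on log2(FPKM + 0.1), and ranged from -0.1187 to 0.0676 with 1 library left out. The count of the 9 genes past the threshold, 3 as reported, was 5 with library size alone, 6 with no filter on low counts, 0 with limma on log2(FPKM + 1) without a filter, and 3 to 4 with 1 library left out. The pathway genes, 20 as reported, gave 32 with no filter, 4 with limma on log2(FPKM + 1) without a filter and 12 to 34 with 1 library left out. Over the transcriptome 75 genes became 104 with library size alone, 997 with no filter and 132 with DESeq2. They became 18 with limma on log2(FPKM + 1) without a filter and 27 to 1403 with 1 library left out. Neighbours, 0 as reported, gave 2 with no filter and 0 to 2 with 1 library left out. The cause was not tested. On log2(FPKM + 1), IFI44L had 0.17 and EPSTI1 0.26, where the pseudocount is large beside their FPKM. Libraries with the same replicate number shared deviations with r of 0.08, 0.23 and 0.17, so the numbers were not taken as pairs, although each library correlated best with its own number. With the replicate number as a block the counts were 7 of the 9 genes, 49 pathway genes, 3899 over the transcriptome and 2 neighbours. With the replicate block and a gene length correction they were 7, 51, 3333 and 4. SRPK2 ranged from 2.53 to 2.81. IFI44L, EPSTI1 and IFI6 had at most 340 reads a library.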
